A study of Mus musculus with 2 samples.

Results

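The 8 immunoglobulin heavy chain constant genes of the mouse, Ighm, Ighd, Ighg3, Ighg1, Ighg2b, Ighg2c, Ighe and Igha, were examined in cells of the mediastinal lymph nodes (MedLNs), which drain the lung. They were found by their symbols in the gene lists of both libraries and are 8 of the 31053 genes listed there. Their use was read in all cells of the B lineage, together with the genes found in the same cell and the amount of their RNA found in T cells. The samples were 2 droplet libraries of wild-type (WT) C57/B6J mice with asthma induced by ovalbumin (OVA), 1 without and 1 with butyrate (C4), a short-chain fatty acid made by gut bacteria. All mice received 50 µg OVA on days 0 and 7, were challenged on days 14 to 16 and gave their MedLNs on day 17, and the mice of the whole study were 5 to 13 weeks old. Each library pooled the cells of 4 mice before capture, so a difference between mice cannot be told apart from a difference between conditions. There was no replicate library, no test was possible, and every interval below is a 95% interval that covers counting error only.

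A B cell joins 1 rearranged variable region to a constant region, and the constant region sets the class of the antibody. Naive B cells make IgM and IgD from 1 long transcript by alternative splicing. Class switch recombination cuts out the DNA between Ighm and a constant gene further along, so that a switched cell uses an Ighg, Ighe or Igha gene and loses those it has deleted. Switching is known to be steered by cytokines, with IL-4 favouring IgG1 and IgE, interferon-γ favouring IgG2c and TGF-β favouring IgA, and IgE arms mast cells in allergic asthma. Plasma cells then secrete the antibody and fill much of their RNA pool with heavy and light chain transcripts.

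On mouse chromosome 12 of GRCm38 (mm10), the 8 genes lie on the minus strand in the order Ighm, Ighd, Ighg3, Ighg1, Ighg2b, Ighg2c, Ighe and Igha. Ighm spans chr12:113418558-113422730 and Ighd chr12:113406604-113416324. The IgG genes span chr12:113356224-113361232 (Ighg3), chr12:113325240-113330523 (Ighg1), chr12:113302965-113307933 (Ighg2b) and chr12:113285325-113288932 (Ighg2c). Ighe spans chr12:113269260-113273248 and Igha chr12:113254830-113260236, which puts Igha 162 kb downstream of the 5′ end of Ighm. The identifiers in the files matched GENCODE M21 for all 8 genes.

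The 4 IgG genes are close relatives, which matters when reads from the 3′ end of a transcript are given to one of them. The last 60 coding bases of the secreted forms are shown for this reason. They come from exon 4 of each gene, the final exon of the secreted transcript in GENCODE M21, and end at the base before the stop codon. In the IgG genes, capitals mark the bases that differ from Ighg2b at the same place. Ighe is shown for contrast in lower case throughout, because only the IgG genes were marked, though it differed from Ighg2b at 45 of the 60 bases. The stretches lie on the minus strand at chr12:113306392-113306451 (Ighg2b), chr12:113287392-113287451 (Ighg2c), chr12:113328979-113329038 (Ighg1), chr12:113359668-113359727 (Ighg3) and chr12:113271276-113271335 (Ighe).
Ighg2b: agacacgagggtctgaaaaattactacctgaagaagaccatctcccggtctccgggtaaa
Ighg2c: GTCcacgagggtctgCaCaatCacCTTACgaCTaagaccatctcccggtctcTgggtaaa
Ighg1: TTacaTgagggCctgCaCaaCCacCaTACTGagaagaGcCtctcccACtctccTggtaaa
Ighg3: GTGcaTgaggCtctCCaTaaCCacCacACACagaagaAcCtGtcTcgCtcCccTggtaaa
Ighe: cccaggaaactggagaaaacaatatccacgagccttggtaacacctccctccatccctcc
Ighg2c differed from Ighg2b at 14 of the 60 bases, Ighg1 at 19 and Ighg3 at 22. Over the whole coding sequence of the secreted form, Ighg2b and Ighg2c were 85.7% identical and shared an unbroken run of 78 bases in their transcripts. The other pairs of IgG genes were 74.1% to 75.9% identical, with shared runs of 28 to 41 bases. Ighe was 49.3% identical to Ighg1, with no shared run longer than 14 bases. A read within a run that 2 genes share cannot be given to one of them, so low counts of Ighg2b beside high counts of Ighg2c in a cell, or the reverse, are uncertain.

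Cells were sorted into classes by marker genes that do not include the 8 genes. After removal of cells with high mitochondrial UMIs, few genes or high doublet scores, 8774 of 9681 cells remained without butyrate and 8013 of 8932 with butyrate. A B-lineage cell held at least 3 UMIs (unique molecular identifiers, counts of captured molecules) of Cd79a and Cd79b or at least 5 of Jchain, with at most 1 CD3 UMI, and there were 4192 and 3930 such cells. T cells, with at least 3 CD3 UMIs, numbered 4238 and 3720. Among the B-lineage cells, those with at least 5 Jchain UMIs and a UMI of Sdc1 or Tnfrsf17, genes of plasma cells, numbered 36 without and 12 with butyrate and are called plasma gate cells. Cells outside that gate with UMIs of at least 2 of 7 germinal centre genes numbered 75 and 77. The check gene Ms4a1, which encodes CD20, was found in 94.9% and 96.3% of B-lineage cells and in 2.83% and 2.47% of T cells, and Mzb1 was found in all plasma gate cells. Median depth was 4406.5 and 4612 UMIs per B-lineage cell and 5684.5 and 6668 UMIs per T cell, and 25 cell barcodes occurred in both libraries.

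Summed over B-lineage cells, the IgG genes were lower with butyrate, while Ighm, Ighd and Igha were near the level without it. Ighg2c, the IgG2c gene of C57BL/6 mice, stood at 1311 CPM (UMIs of the gene scaled to a common total per library; interval 1296 to 1326) without butyrate and at 0.505 CPM (0.252 to 0.903) with butyrate. Its sums were 29824 and 11 UMIs. Ighg1, the main IgG gene of IL-4 driven responses, stood at 1114 CPM (1100 to 1127) and 43.6 CPM (40.9 to 46.4). Ighg2b stood at 377 CPM (369 to 385) and 111 CPM (107 to 116), and Ighg3, used early and without much T cell help, at 15.9 CPM (14.3 to 17.6) and 3.17 CPM (2.46 to 4.01). On the log2 scale with 10 CPM added to both values, the ratio with over without butyrate was -6.97 for Ighg2c, -4.39 for Ighg1, -1.68 for Ighg2b and -0.97 for Ighg3.

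On this scale the other genes of the locus moved less. Ighm stood at 3008 CPM without butyrate and 2768 CPM with it, which is -0.12 on this scale and 0.08 when plasma gate cells were left out. Ighd stood at 862 and 1011 CPM (0.23). Igha, the gene of mucosal IgA, stood at 223 and 296 CPM, a log2 ratio of 0.39. Ighe was the scarcest gene without butyrate, with 58 UMIs (2.55 CPM, 1.94 to 3.30), and had 25 UMIs (1.15 CPM, 0.742 to 1.69) with butyrate. Its log2 ratio was -0.17 after the 10 CPM were added, which exceed both levels and so shrink the ratio. Without them it was -1.15 (-1.89 to -0.45), for UMIs that lay in only 4 and 2 cells. With the 10 CPM added, 3 of the 8 genes were lower by at least 1, beside 0.125% of the 10416 genes whose sums together reached 50 UMIs. Of the 8 genes 0 were higher by at least 1, beside 0%. The median ratio was -0.57 over the 8 genes and 0.03 over all 10416.

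**Figure D1:**
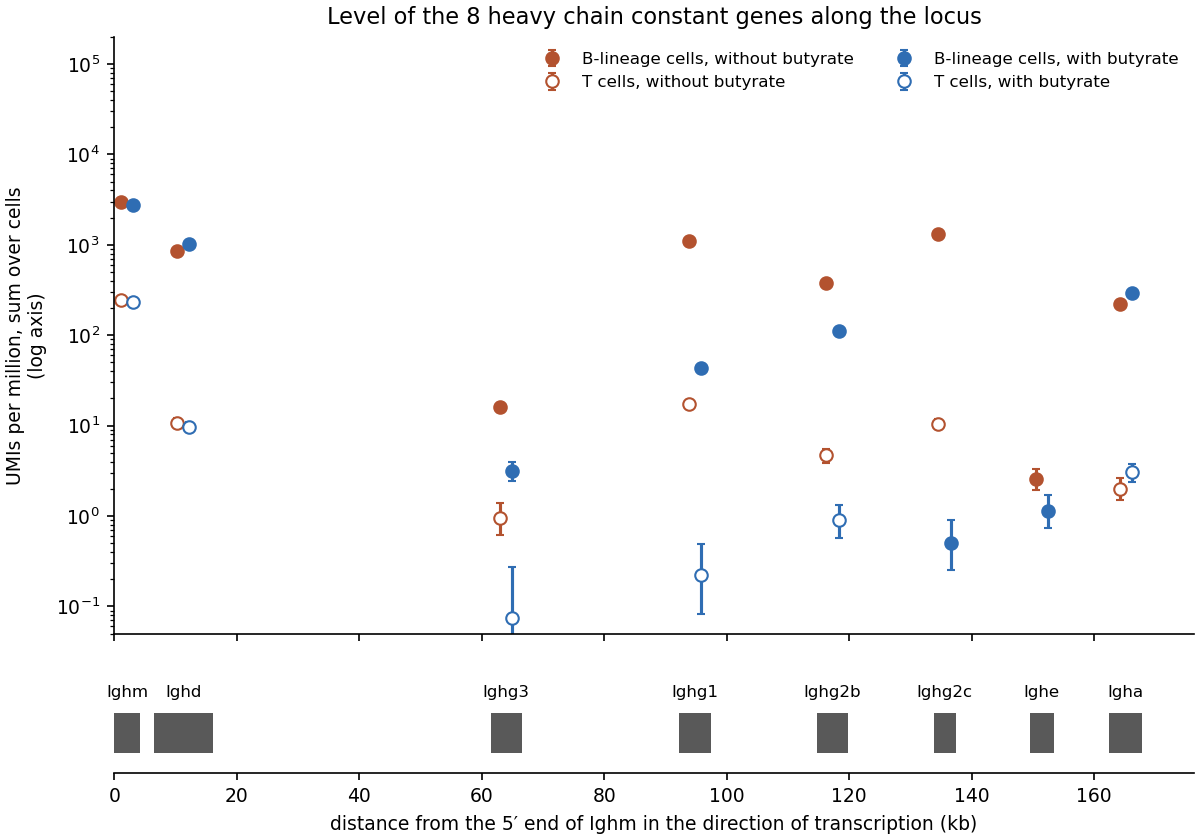
Level of each gene, as CPM over the summed cells of a class (log axis), against distance from the 5′ end of Ighm in kb. Filled circles are B-lineage cells and open circles T cells, in red without and blue with butyrate, bars are 95% Poisson intervals, and the points of a gene are set slightly apart around its middle. A sum of 0 UMIs is not drawn, which applies to Ighe in T cells of both libraries and to Ighg2c in T cells with butyrate. The blue points lie far below the red ones at Ighg1 and Ighg2c and close to them at Ighm, Ighd and Igha.

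These sums rested on very few cells. The intervals of the levels and of their ratios treat each UMI as a separate count, so they do not cover which cells were captured. Of the Ighg1 UMIs of B-lineage cells without butyrate, 96.1% lay in the 10 cells with most of them, and 3 cells held at least 50% of them. A single cell held 96.0% of the Igha UMIs without butyrate and 64.6% with butyrate. One cell held 53.8% of the Ighg2b UMIs without butyrate and 92.4% with it. Ighg2c was spread over more cells, with 7 cells needed for 50% of its UMIs. Ighm and Ighd differ in kind, since 562 and 1110 cells were needed without butyrate. The 10 highest cells of each gene were then left out of each library. The log2 ratio became -1.34 for Ighg1, -0.92 for Ighg2b, -0.32 for Ighg3 and 0.09 for Ighm. Ighg1 was left at 43.1 CPM without and 11.0 CPM with butyrate, while T cells held 17.4 and 0.225 CPM of it. The part of such background in these ratios was not tested. Ighg2c kept 7511 UMIs without and 0 with butyrate. Only 7 B-lineage cells with butyrate held an Ighg2c UMI, so that 0 was fixed by the setting and shows nothing about Ighg2c.

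To give each cell 1 isotype, the gene with most UMIs among the 8 was taken as dominant if it reached a number of UMIs that at most 0.1% of T cells reached in either library. That number was 18 for Ighm, 3 for Ighd, Ighg3, Ighg1 and Ighg2c, and 2 for Ighg2b, Ighe and Igha. By this rule 74 of 4192 B-lineage cells had a switched dominant gene without butyrate, a share of 1.77% (1.39 to 2.21). With butyrate 31 of 3930 had one, a share of 0.789% (0.537 to 1.12), and the log2 ratio of the shares was -1.16 (-1.82 to -0.54). Ighg1 was the most frequent switched gene in both libraries, with 42 cells without butyrate against 24, and the interval of its log2 ratio of -0.71 (-1.50 to 0.04) includes 0. Ighg2c was dominant in 16 cells without and in none of the 3930 with it, a count of 0 that permits at most 0.0763% of cells. Against that limit its share was at least 5-fold lower, and the exact interval of the ratio, which also covers the counting error of the 16 cells, reached down to 3.62-fold lower. Ighg2b was dominant in 10 and 5 cells, Ighg3 in 4 and 0, Igha in 1 and 2, and Ighe in 1 and 0.

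Ighm and Ighd made up nearly all other calls. Ighm was dominant in 653 cells without (15.6%) and 747 cells with butyrate (19.0%), and Ighd in 349 (8.33%) and 397 (10.1%). The high number required of Ighm left 74.3% and 70.1% of B-lineage cells without a call. With no minimum at all, Ighm was dominant in 85.1% and 84.8% of B-lineage cells and the switched genes in 77 and 31 cells, so the minimum set the Ighm share and hardly touched the switched ones.

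Plasma gate cells of both libraries used Ighm, Ighg1, Ighg2b and Igha, and Ighg2c and Ighe were dominant without butyrate only. Of the 36 cells without butyrate, 14 used Ighg2c (38.9%, 23.1 to 56.5), 10 Ighm, 7 Ighg1, 3 Ighg2b, 1 Igha and 1 Ighe. Of the 12 cells with butyrate, 5 used Ighm, 4 Ighg1, 2 Igha and 1 Ighg2b, and 0 used Ighg2c, a count that permits at most 25% of them. The share with a switched gene was 72.2% (54.8 to 85.8) and 58.3% (27.7 to 84.8), intervals that overlap.

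**Figure D2:**
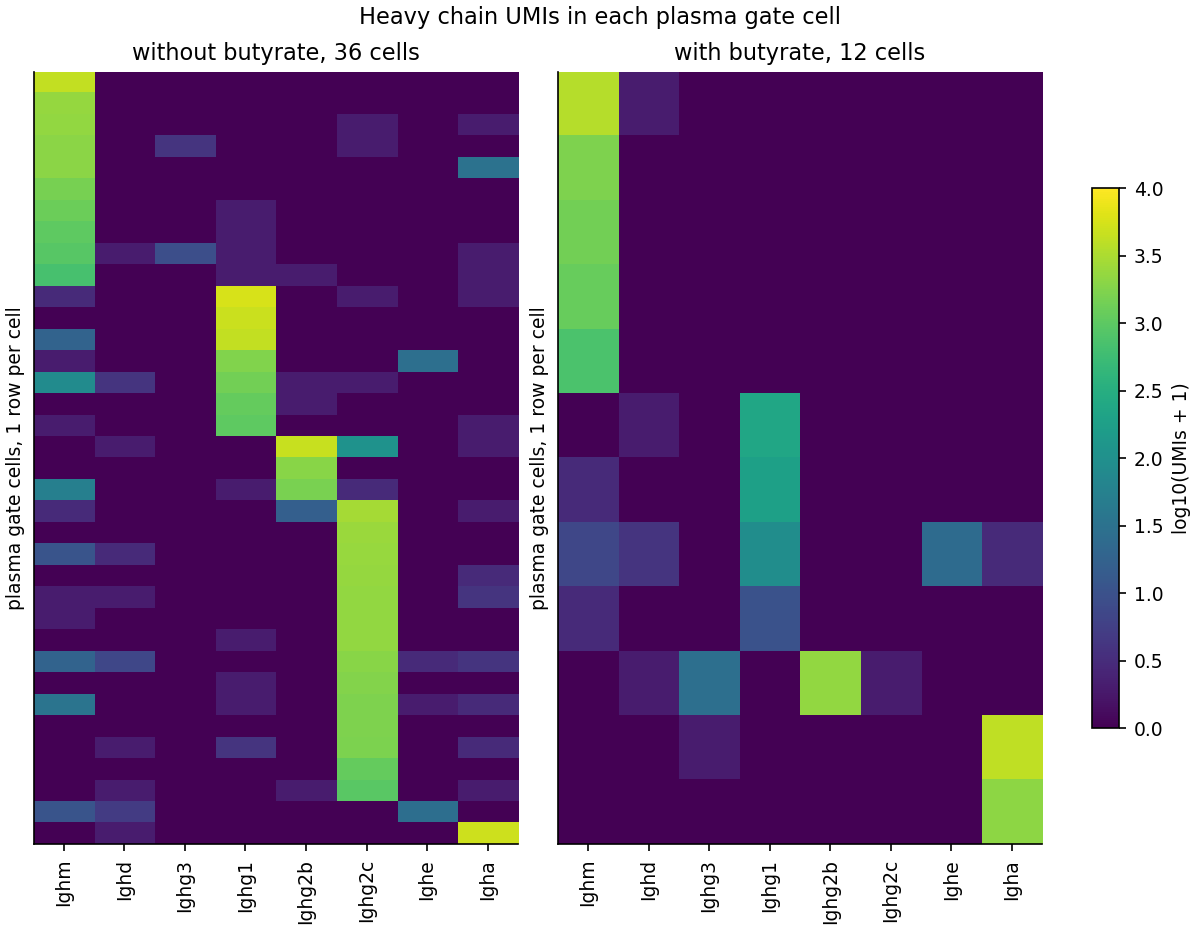
UMIs of each of the 8 genes in every plasma gate cell, as log10(UMIs + 1) by colour, with 1 row per cell and the cells ordered by their dominant gene; the left panel holds the 36 cells without and the right panel the 12 cells with butyrate. In most rows 1 gene far exceeds the rest, the Ighg2c block of 14 rows is present without butyrate only, and the Ighg1 rows with butyrate are dimmer than those without.

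In most plasma gate cells the heavy chain RNA was abundant and came almost wholly from 1 gene, with 5 exceptions given here. The 14 Ighg2c cells held 952 to 2895 Ighg2c UMIs (median 2092), a median of 9.49% of all UMIs in the cell, and a median of 99.9% of their heavy chain UMIs came from Ighg2c. The 10 Ighm cells without butyrate held 682 to 4347 Ighm UMIs, and the 5 with butyrate 740 to 3597, so these ranges overlap. The 7 Ighg1 cells without butyrate held 1033, 1141, 1407, 1720, 4218, 4860 and 5795 Ighg1 UMIs. The 4 Ighg1 cells with butyrate held 9, 91, 185 and 228, all below the lowest value without butyrate. These 4 cells had 12428, 83781, 41064 and 36361 UMIs in all, against 18391 to 35576 in the 7 without butyrate. They held 6 to 52 Jchain UMIs, against 221 to 1070 in the 7 cells without butyrate. None of the 4 had 5 UMIs of any Ighv or light chain variable gene, while all 7 without butyrate had, and the only other plasma gate cell with under 682 UMIs of its dominant gene was the Ighe cell without butyrate. Igha was used by 1 cell without butyrate, with 4869 UMIs, and by 2 cells with butyrate, with 2101 and 4166.

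Counted by the amount of RNA alone, 29 B-lineage cells without and 5 with butyrate held at least 100 UMIs of a switched gene. For Ighg1 there were 9 and 2 such cells, for Ighg2c 16 and 0, for Ighg2b 3 and 1, for Igha 1 and 2, and for Ighg3 1 and 0, with 1 cell counted for both Ighg2b and Ighg2c. For Ighm there were 16 and 8. Of these cells, 4 with a switched gene lay outside the plasma gate without butyrate and 0 did with butyrate.

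Variable genes gave a further view of these cells. The 14 Ighg2c plasma gate cells included 12 with at least 5 UMIs of an Ighv gene, and these showed 10 different Ighv genes. All 7 Ighg1 cells without butyrate had different Ighv genes, as did the 8 Ighm cells in which one was found. Pairs were sought in plasma gate cells and in other B-lineage cells with at least 100 UMIs of a switched gene. Ighv1-81 with Iglv1 was found in 3 cells, 1 using Ighg1 and 2 using Ighg2c. Ighv1-22 with Iglv1 was found in 2 cells, 1 using Igha and 1 using Ighg3, and all 5 cells were without butyrate. Pairs were also shared across the libraries, with Ighv11-2 and Igkv14-126 in 1 Ighm cell of each, and Ighv1-55 with Iglv1 in 1 Ighg2c cell without and 1 Ighg2b cell with butyrate. Iglv1 was a common light chain gene in these cells, and the reads do not give the joined sequence, so a shared pair of genes does not show a shared clone.

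Cells with germinal centre genes carried most of the remaining switched calls. Of these, 33 of 75 without butyrate (44.0%, 32.5 to 55.9) and 22 of 77 with butyrate (28.6%, 18.9 to 40) had a switched dominant gene, and the log2 ratio of -0.62 (-1.47 to 0.20) has an interval that includes 0. Ighg1 was dominant in 28 and 20 of them, with a median of 18.5 and 15 UMIs per cell, and Ighg2b in 5 and 2. Ighg2c, Ighg3, Ighe and Igha were dominant in 0 cells with germinal centre genes in either library, counts that permit at most 4% and 3.90% of these cells. The highest Ighg2c count was 2 UMIs among the 75 cells without and 3 among the 77 with butyrate. The Ighg2c cells of the plasma gate held 952 or more. Ighg2c was not lower with butyrate in this class, at 10.3 CPM (4.96 to 19.0) without and 11.5 CPM (4.97 to 22.7) with it. In T cells it stood at 10.6 CPM without and 0 CPM with butyrate. One cell with 1921 Ighg1 UMIs lay in this class without butyrate, while the highest count with butyrate was 40. That cell held 269 Jchain UMIs and missed the plasma gate only for lack of an Sdc1 or Tnfrsf17 UMI.

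Ighd was lower in cells with germinal centre genes, which are known to shut down IgD. An Ighd UMI was found in 48.0% of them without butyrate and 68.8% with butyrate, against 95.9% and 96.8% of the other B-lineage cells. Their Ighd level was 193 CPM (167 to 223) without and 499 CPM (448 to 554) with butyrate. With 75 and 77 cells chosen by 2 genes each, this class can hold cells that are not germinal centre cells, and how many was not tested.

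**Figure D3:**
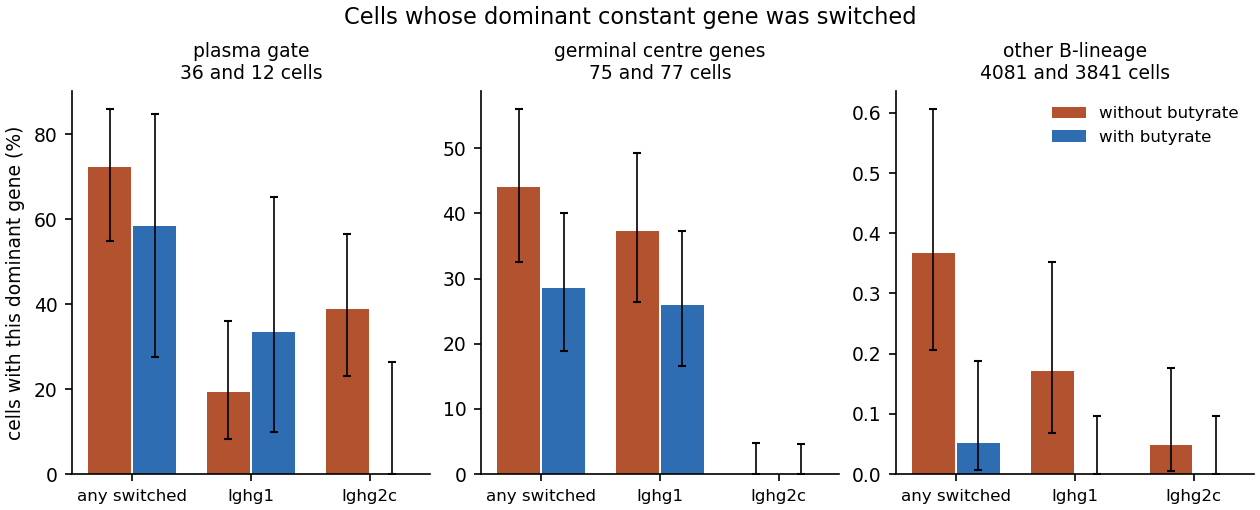
Share of cells (%) whose dominant constant gene was any switched gene, Ighg1 or Ighg2c, in plasma gate cells, cells with germinal centre genes and other B-lineage cells, in red without and blue with butyrate; each panel has its own axis from 0. Bars are shares and lines 95% exact binomial intervals. The intervals overlap for any switched gene in the first and middle panels, and Ighg2c stands above 0 in plasma gate cells without butyrate.

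Other B-lineage cells were almost never switched. In this class 15 of 4081 cells without butyrate (0.368%, 0.206 to 0.606) and 2 of 3841 with butyrate (0.0521%, 0.00631 to 0.188) had a switched dominant gene. Ighg1 was dominant in 7 and 0 of them, Ighg3 in 4 and 0, Ighg2b in 2 and 2, and Ighg2c in 2 and 0. The 4 Ighg3 cells included 1 with 184 Ighg3 UMIs among only 940 UMIs in all, and a further filter at 500 genes, which removed it, brought the log2 ratio of Ighg3 over all B-lineage cells from -0.97 to -0.43. Summed over all B-lineage cells outside the plasma gate, 3 of the 7 genes with enough UMIs were lower by at least 1 with butyrate, namely Ighg2c (-3.28), Ighg1 (-3.02) and Ighg3 (-1.14). These sums rested on 4 cells without butyrate, 1 holding 1694 of the 1990 Ighg2c UMIs, a pair holding 2190 and 1921 of the 5142 Ighg1 UMIs and 1 holding 184 of the 350 Ighg3 UMIs. In this order the 4 cells held 600, 361, 269 and 4 Jchain UMIs. The first 3 missed the plasma gate only for lack of an Sdc1 or Tnfrsf17 UMI. Without these 4 cells, a setting chosen after the values were seen, the log2 ratios were -1.17, -0.92 and -0.57, and Ighg2c stood at 13.6 CPM without butyrate, near the 10.6 CPM of T cells. Ighg1 then stood at 47.5 CPM without butyrate, against 17.4 CPM in T cells. With all cells, the 3 of 7 compare with 0.0774% of 10333 genes, and 0 of the 7 were higher, beside 0%.

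Ighm and Ighd were found together in most B-lineage cells outside the plasma gate. At least 1 UMI of each was found in 94.9% of these cells without and 96.2% with butyrate, while T cells had an Ighm UMI in 68.5% and 72.3% and an Ighd UMI in 6.25% and 6.37%. At 18 Ighm and 3 Ighd UMIs, the numbers that at most 0.1% of T cells reached, both were found in 515 of 4156 (12.4%) and 622 of 3918 cells (15.9%). Ighm was higher than Ighd in 86.1% and 85.2% of the B-lineage cells outside the plasma gate, and Ighd was higher in 8.64% and 10.3%. The sum of Ighm UMIs was 2.54 and 2.35 times that of Ighd. The median cell held 10 Ighm and 4 Ighd UMIs without butyrate and 11 and 5 with butyrate, so both genes were slightly higher per cell with butyrate at a slightly higher depth. In cells dominated by Ighg1, an Ighd UMI was found in 4 of 42 without and 3 of 24 with butyrate, against 95.9% and 96.8% of the other B-lineage cells.

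A second switched gene was rare among all B-lineage cells, and less so among those with a switched gene. With at least 3 UMIs required of each, 2 or more switched genes were found in 14 B-lineage cells without and 4 with butyrate. Exactly 1 was found in 97 and 46 cells. The IgG genes with the greatest sequence likeness, Ighg2b and Ighg2c, made some of these pairs. One cell had 4607 Ighg2b and 109 Ighg2c UMIs and another 2895 Ighg2c and 15 Ighg2b, both without butyrate. Ighg3 and Ighg2b made other pairs, in cells with 33 and 21, 15 and 5, 11 and 13, and 5 and 22 UMIs without butyrate. With butyrate 1 cell held 28 and 2237. The cells with 11 and 13 and with 5 and 22 UMIs also held 119 and 105 Ighm UMIs, so their dominant gene was Ighm. Ighg2c and Igha, only 49.8% identical and with no shared run longer than 11 bases, were paired as well. Such cells without butyrate held 13 and 4, 2247 and 3, 4 and 4, and 1961 and 3 UMIs of them. The part that shared sequence has in these pairs was not tested. At 5 UMIs of each gene, chosen as a stricter setting after the values were seen, Ighg3 and Ighg2b were found together in 4 and 1 cells, and Ighg2b and Ighg2c in 2 and 0.

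Ighe, the gene of IgE, was found in very few cells. In the deposited files 5 cells without and 3 with butyrate held an Ighe UMI. Without butyrate, the cell with most of its own heavy chain RNA from Ighe held 27 Ighe, 10 Ighm and 4 Ighd UMIs among 3906 UMIs, with 21 Jchain UMIs. Another plasma gate cell held 28 Ighe UMIs beside 1720 Ighg1 UMIs, and a pair of plasma gate cells held 2 and 1 Ighe UMIs beside 1961 and 1707 Ighg2c UMIs. The fifth held 2 Ighe UMIs beside 22 Ighm and 17 Ighg1 UMIs and failed the B-lineage rule. With butyrate, 1 plasma gate cell held 24 Ighe and 91 Ighg1 UMIs among 83781 UMIs, one held 1 Ighe beside 80 Ighm and 19 Ighg1 UMIs, and the last, with 2 Ighe, 25 Ighm and 9 Ighg2c UMIs, was removed as a doublet. In all but 1 of these 8 cells another constant gene thus had more UMIs than Ighe. The share of plasma gate cells with an Ighe UMI was 4 of 36 (11.1%, 3.11 to 26.1) and 1 of 12, and with so few cells these data cannot show a difference in Ighe.

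T cells make no antibody, and the UMIs of the 8 genes found in them were taken as the background of each library. For Ighm this is uncertain. Its mean in T cells was 9.48% and 10.9% of the mean in B-lineage cells, against 1.43% and 1.24% for Ighd. Without butyrate an Ighg1 UMI was found in 10.2% of T cells (9.34 to 11.2) and with butyrate in 0.161% (0.0592 to 0.351). Ighg2c was found in 6.32% of T cells (5.61 to 7.10) without butyrate and in 0 of 3720 with it, a count that permits at most 0.0806%. Ighg2b was found in 2.88% and 0.645%, Ighg3 in 0.401% and 0.0538%, Igha in 1.25% and 2.18%, Ighd in 6.25% and 6.37%, and Ighe in 0 of 4238 and 0 of 3720. For each of the 4 IgG genes and for Igha, the library with the higher share of T cells was also the one with the higher level in B-lineage cells.

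For this reason a single UMI of an IgG gene was not read as expression. Without butyrate an Ighg1 UMI was found in 9.57% of B-lineage cells, at a median depth of 4406.5 UMIs, and in 10.2% of T cells, at 5684.5 UMIs. Ighg2c was found in 6.80% of B-lineage and 6.32% of T cells, and Ighg2b in 3.91% and 2.88%. At these unequal depths the B-lineage shares of Ighg1 and Ighg2c were close to the background, and that of Ighg2b was above it. Ighg3 was found in 1.48% of B-lineage and 0.401% of T cells. With butyrate, Ighg1 was found in 59 of 3930 B-lineage cells and Ighg2c in 7, against 6 and 0 of 3720 T cells. Every cell was then thinned to 2000 UMIs, for which 44 and 16 B-lineage and 18 and 13 T cells were too shallow. An Ighg1 UMI was then found in 4.58% of B-lineage and 3.70% of T cells without butyrate. With butyrate it was found in 1.07% and 0.0540%. At this depth and without butyrate, Ighg2c was found in 2.89% of B-lineage and 2.32% of T cells. Ighg2b was found in 2.10% and 1.02%, and Ighg3 in 0.506% and 0.190%, so these B-lineage shares were higher than those of T cells. The Ighg3 share of T cells rested on 8 cells. Summed over T cells, 2 of the 6 genes with enough UMIs were lower by at least 1 with butyrate, Ighg1 (-1.42) and Ighg2c (-1.04), beside 0.0656% of 10668 genes, and 0 were higher, beside 0.0187%.

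**Figure D4:**
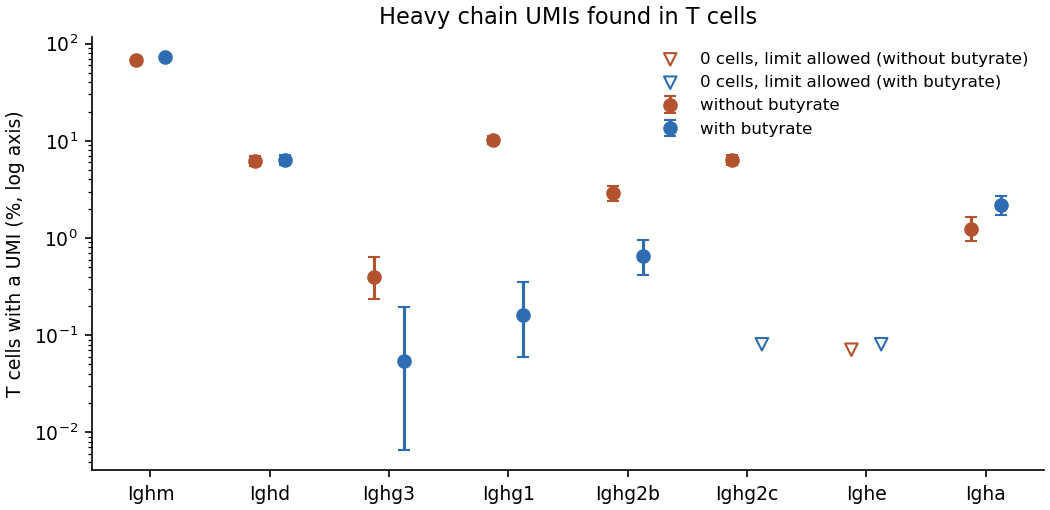
Share of T cells with at least 1 UMI of each gene (%, log axis), in red without and blue with butyrate, with 95% exact binomial intervals; open triangles mark the limit that 0 cells allow. Ighg1 and Ighg2c lie far apart between the libraries, and Ighm and Ighd lie together.

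Ighm was far more common in T cells than any other gene of the set. A UMI of it was found in 68.5% of T cells without and 72.3% with butyrate, with a mean of 1.55 and 1.68 UMIs per cell. The mean in T cells was 9.48% and 10.9% of the mean in B-lineage cells. For Ighd it was 1.43% and 1.24%, for the light chain gene Igkc 0.805% and 0.801%, and for Cd79a 0.529% and 0.541%. The ratio of Ighm to Ighd UMIs was 23.1 and 24.2 in T cells, against 3.49 and 2.74 in B-lineage cells. The Ighm in T cells thus stood far above the ratio to Ighd that B-lineage cells showed. Cells with a Cd4 UMI and no Cd8 UMI held a mean of 1.60 Ighm UMIs without and 1.63 with butyrate, and cells with a Cd8 UMI and no Cd4 UMI 1.61 and 1.85. Myeloid cells, of which 77 and 91 were found by Tyrobp and Fcer1g, held 1.47 and 1.98, near the means in T cells. The source of this Ighm was not tested.

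**Figure D5:**
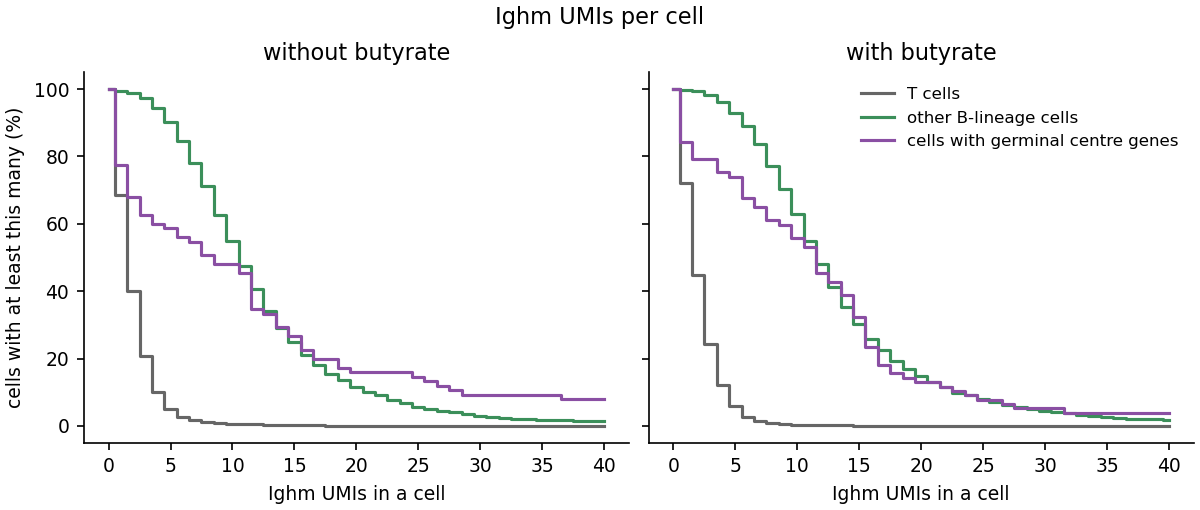
Share of cells (%) with at least a given number of Ighm UMIs, for T cells, other B-lineage cells and cells with germinal centre genes, without (left) and with (right) butyrate; counts of 40 or more are drawn at 40. T cells fall to near 0 by about 10 UMIs, other B-lineage cells fall more slowly, and part of the cells with germinal centre genes have no Ighm.

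The genes around class switching showed no shift of this size. Of 25 class switch recombination genes, 22 were listed and passed the filter, and 0 of 22 were lower or higher by 1 in B-lineage cells, with a median log2 ratio of 0.02 against 0.03 over all genes. Of 21 genes of the signals that choose an isotype, 19 passed the filter and 0 moved by 1, with a median of 0.10. Il4ra, the receptor chain for IL-4, had a log2 ratio of 0.33.

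Of 11 genes of antibody secretion, 1 was lower by 1. Jchain, whose product joins IgM and IgA into polymers, had 19426 and 5394 UMIs and a log2 ratio of -1.75. The list's median was -0.43, with Derl3 at -0.87, Mzb1 at -0.67 and Hsp90b1 at -0.62, and outside the plasma gate it was -0.12. Outside the plasma gate the log2 ratio of Jchain was -2.17. Jchain also helped to define the gates, so its level there is no separate result. Of 7 Fc and transport receptors of immunoglobulins, 6 passed the filter and 1, Fcer1g, was lower by 1, at -1.16. Fcer1g encodes a signalling chain of Fc receptors in myeloid cells, and 319 of its 356 UMIs without butyrate lay in 8 cells of the B-lineage class. Fcer2a, which encodes the low-affinity IgE receptor CD23 of B cells, stood at 310 and 401 CPM, a log2 ratio of 0.36.

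Genes that varied from cell to cell like a constant gene were sought by the correlation of log-normalized counts over the 4192 and 3930 B-lineage cells, as a description in which cells share a library and depth. For Ighd the closest were Fcmr, the IgM receptor, with r of 0.23 in the library without and 0.24 in the library with butyrate, and the MHC class II genes H2-Aa (0.30 and 0.22) and H2-Ab1 (0.26 and 0.21). For Ighg1 they were Jchain (0.37 and 0.41), Basp1 (0.36 and 0.53) and Slpi (0.50 and 0.32). For Ighm, Ighg3, Ighg2b and Igha no gene reached 0.2 in both libraries, and Ighg2c and Ighe were found in too few cells with butyrate.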

How the data were processed

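Per the labels, total cells of the MedLNs were captured with the 10x 3′ v3 kit. The deposited values are UMI counts that the authors obtained by Cell Ranger 6.0.1 on mm10 (submitters' processing notes), neither normalized nor replicated. Totals were 59176459 UMIs without and 58381292 with butyrate. The counts still held cells past the study's filters, so a limit of 10% on mitochondrial UMIs and of at least 200 genes took away 186 and 327 cells. Scrublet, run in scanpy 1.11.5, then ranked cells as doublets, and the top 0.8% for every 1000 captured (721 and 592) were dropped. Gene positions and sequences are from GENCODE M21. The members, gates and lists were chosen with earlier results of these data known.

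Shares carry exact binomial (Clopper-Pearson), sums exact Poisson and ratios exact conditional 95% intervals. A count of 0 allows 3 counts. Ratios of CPM used a pseudocount of 10 and genes with at least 50 UMIs. Named genes are the 8 members, genes of the lists, every cell with Ighe, and up to 3 genes per member with r of at least 0.2 in both libraries, beside cells singled out after their values were seen. No test was made. The ratio, interval and thinning steps were tested on simulated data. Alternatives changed doublet removal, filters, gates, depth, call minimum, pseudocount and scaling. Of the listed genes, 3 (Shld1, Shld2, Shld3) are not listed under these symbols and were not analysed here. Some genes of the gates and lists are not reported here. Python 3.11.15, numpy 2.4.6, pandas 2.3.3, scipy 1.17.1 and biopython 1.88 were used.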

Additional observations from a re-analysis of the deposited data

Results flagged for a closer look

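Cells removed by the filters were left out of the reported comparisons, and some held strong heavy chain RNA. Without butyrate 3 of 907 removed cells held at least 100 Ighg1 UMIs, with a highest count of 3877, and the removed cells held 6192 Ighg1 UMIs in all. With butyrate 2 of 919 removed cells held at least 100 Ighm UMIs, with a highest count of 2060, and 1 held 899 Igha UMIs. With no doublet removal, chosen for this count after the data were seen, the plasma gate held 37 and 13 cells in place of 36 and 12.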

How the results depend on the processing

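The switched share kept its direction under 10 of 10 alternatives, with log2 ratios from -1.25 to -0.91. The dominant share of Ighg1 lay between -0.93 and -0.60, of Ighg2b between -1.50 and -0.52 and of Ighg2c between -2.41 and -2.11, with 0 cells with butyrate throughout. The dominant share of Ighm, 0.29 as reported, was 0.10 when cells were thinned to 2000 UMIs, 0.020 with a fixed minimum of 5 UMIs and -0.0052 with no minimum, so its direction rests on the minimum. The share of T cells with an Ighm UMI, 0.08 as reported, was -0.064 after thinning. For T cells, Ighg2b was -2.92 and Ighg2c -4.84 after thinning, and Ighg2c -5.96 under strict gates. The count of B-lineage genes lower by 1, 13 as reported, was 8 without plasma gate cells, 22 with immunoglobulin, ribosomal and mitochondrial genes left out of the total and 72 with a pseudocount of 1 CPM. The count higher by 1, 0 as reported, was 1 at 5% mitochondrial UMIs, 1 under loose gates, 1 with the other total and 7 with a pseudocount of 1 CPM. Among the 8 genes, 2 to 4 were lower by 1 and 0 higher under all 13 alternatives. The log2 ratio of Ighg1 levels ran from -4.64 to -1.34, of Ighg2c from -9.77 to -3.28, of Ighg2b from -1.75 to -0.73 and of Ighm from -0.23 to 0.09. The causes were not tested. No paired analysis was possible because each condition has 1 library and no test was made. The 36 and 12 plasma gate cells limit the isotype counts.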
